A study of Rattus norvegicus with 18 samples.

Results

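The comparison described here asks which PE differences were found in cells that had also been given 10 electric pulses. It sets P_ES10 against ES10, with 3 RNA-seq libraries each, which is 6 of the 18 libraries of the series. The libraries were chosen by their sample titles alone. All are from H9C2, an adherent line derived from embryonic rat heart. ES10 cells received 10 pulses of 100 µs at 1500 V/cm. P_ES10 cells were kept with PE at 50 µmol/L for 48 h and then received the same 10 pulses. Both groups therefore carry the pulses, and the PE treatment is the labelled difference between them. Where the PE difference without pulses is given beside it, it comes from P (PE at 50 µmol/L for 48 h, no pulses) and NC (neither), again 3 libraries each. The labels name the compound only as PE. How long after the pulses the cells were harvested is not given in the sources used here. Replicates carry numbers in the labels with no word on separate cultures, so a p-value here reflects library-to-library spread within 1 cell line, which may be technical.

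Short, strong electric pulses make the plasma membrane of a cell transiently permeable, and a permeabilised cell must reseal its membrane and restore its ion gradients. Transcripts that respond to many kinds of cell stress include immediate early genes, which encode transcription factors such as FOS and EGR1, heat shock chaperones, and heme oxygenase. YAP and TAZ, with the DNA-binding TEAD proteins, drive genes such as Cyr61 and Ctgf when cells spread or are stretched. ATF4, the effector of the integrated stress response, drives genes for amino acid transport and serine synthesis.

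After 10 pulses, PE-treated cells had more mRNA of the TEAD targets Cyr61, Ctgf and Amotl2, of the matrix genes Postn and Timp1 and of the adhesion molecule gene Icam1. They had less mRNA of the 13 mitochondrially encoded protein genes, of genes for serine synthesis and amino acid transport, and of the desaturases Scd1 and Scd2. PE went the same way for each of these without pulses. It did not for some immediate early genes: Fos and Klf2 were lower with PE without pulses and higher with PE after them. Trim72, a membrane repair gene, was higher with PE after pulses.

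The 6 libraries held 14347090 to 15963701 reads on genes, and the 12 libraries of the 4 groups 14004929 to 16049853. Replicates had Pearson correlations of log2(FPKM + 1) of 0.986 to 0.988 in ES10 and P_ES10. FPKM is fragments scaled for gene length and library depth, here in a scaling by the authors in which the median gene is level between libraries. The labels give the cell type as myocardium. Of 8 cardiomyocyte markers, 5 lay below 1 FPKM in all 6 libraries (Myh6, Nppa, Ryr2, Myl7 and Actn2). The list summed to 14.98 to 18.3 FPKM in ES10 and 13.2 to 14.8 in P_ES10, and 1 marker was lower with PE (Tnnt2). Of 7 skeletal myoblast markers, 4 lay below 1 FPKM in all 6 libraries (Myog, Chrna1, Ckm and Myh3). The list summed to 136 to 138 FPKM in ES10 and 125 to 128 in P_ES10, with 1 lower (Cdh15). Most of that sum came from Myod1 and Cdh15, with means of 60.2 and 66.4 FPKM in ES10. The call of Cdh15 was lost in each fit without 1 of the 6 libraries and that of Tnnt2 without ES10 replicate 2 or 3 or P_ES10 replicate 1, 2 or 3, and both were lost with all 18 libraries of the series. The 6 smooth muscle markers summed to 2322 to 2421 FPKM in ES10 and 2444 to 2495 in P_ES10, and limma called 0 of them (1 at an unadjusted p under 0.05, 0 by voom on recovered reads). Of 8 fibroblast markers, 3 lay below 1 FPKM in all 6 libraries (Dcn, Pdgfra and Tcf21, the last at 0). The list summed to 2132 to 2258 FPKM in ES10 and 2113 to 2212 in P_ES10, with 2 higher (Postn and Thy1). Most of that sum came from Col1a1 and Col3a1, with means of 1554 and 499 FPKM in ES10. The 5 endothelial markers each lay below 1 FPKM in all 6 libraries and summed to 0.807 to 1.05 in ES10 and 0.768 to 0.977 in P_ES10, with Cdh5 at 0. The 6 leukocyte markers summed to 3.26 to 3.49 FPKM in ES10 and 2.97 to 4.33 in P_ES10, with 4 below 1 FPKM throughout (Ptprc and Adgre1 at 0). The part of these markers in the results was not tested. In bulk RNA, fewer cells of a kind and less RNA per cell cannot be told apart.

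Of 11549 genes tested, 1333 were called between P_ES10 and ES10 (limma, adjusted p under 0.05), which is 11.5% of those tested. The level was higher with PE for 562 genes (4.87%) and lower for 771 (6.68%). The differences were small, with a median size of 0.25 on the log2 scale among called genes, and 6 higher and 8 lower genes differed at least 2-fold. Without pulses, P versus NC gave 3590 calls (31.1%), 1850 higher (16.0%) and 1740 lower (15.1%), of which 24 higher and 39 lower genes reached 2-fold. Of the 1333 calls after pulses, 844 were called in the same direction without pulses. That is 63.3% of the calls after pulses and 23.5% of those without. By direction, 29.3% of the lower and 18.1% of the higher calls of P versus NC were called again. Another 53 genes were called in opposite directions, 32 of them higher with PE after pulses and lower with PE without. By sign alone, called or not, 81.2% of the calls without pulses (2914 genes) went the same way after pulses. Likewise 86.5% of the calls after pulses (1153 genes) went the same way without. A gene not called again is therefore not shown to lack a PE difference. Across all genes tested, the log2 changes of both comparisons had a Pearson r of 0.32 and a Spearman rho of 0.43. The comparisons share no library, but they share the estimate of the spread, and genes are not independent replicates. Whether the PE difference itself differed with and without pulses was tested as the difference of both, after pulses minus without. This called 704 genes (6.1%), 331 positive (2.87%) and 373 negative (3.23%). Counts of called list members below are to be read beside these shares of all genes, and no list was tested as a set.

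**Figure D1:**
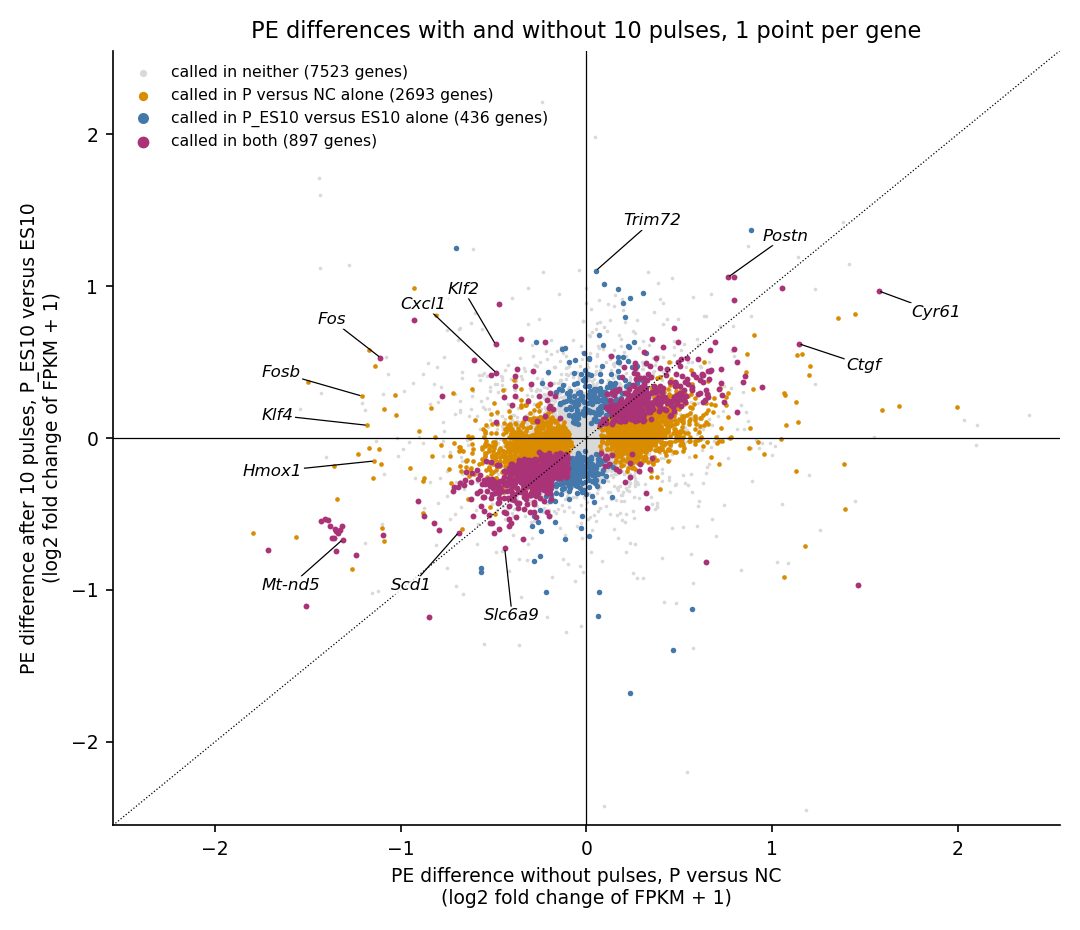
Log2 fold change with PE after 10 pulses (P_ES10 versus ES10, vertical axis) against that without pulses (P versus NC, horizontal axis), on the log2(FPKM + 1) scale, with 1 point for each of 11549 genes, coloured by the comparison in which it was called. The dotted line marks equal differences. Cyr61 lies below it at 1.57 and 0.97, and Fos far above it at -1.11 and 0.53.

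The number of calls depended on which libraries entered the fit. With all 18 libraries of the series in the model, which adds the less alike ES50 replicates (correlations of 0.951 to 0.957), 215 genes were called (82 higher and 133 lower), and P versus NC gave 1136. Leaving out ES10 replicate 1 or 2 or P_ES10 replicate 1 or 2 gave 875, 770, 805 and 713 calls. Of 157 named genes called after pulses, 104 lost their call with all 18 libraries. Among the calls given below, those of Acat2, Bmf, Ccl2, Cxcl1, Hspa1b, Idi1, Lss, Mcm4, Srxn1, Tnc and Tnfaip3 were lost. Further losses are stated with the genes. With FPKM scaled to total reads instead, the median gene stood at 0.05, and 1090 genes were higher and 407 lower. Gene length moved with the comparison, with 81 higher and 54 lower calls among the 2306 shortest genes and 89 higher and 254 lower among the 2304 longest. Its part in the result was not tested.

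Among targets of YAP, TEAD and SRF, 5 of 20 tested genes were higher with PE after pulses and 0 lower, with a median log2 change of 0.06 against -0.00 over all genes. Without pulses 9 were higher and 5 lower. The count after pulses was 5 in each fit without 1 of the 6 libraries and 4 with all 18. Cyr61 encodes a matricellular protein of the CCN family (ENSRNOG00000014350, chromosome 2, 251529354 to 251532312, build Rnor 6.0). It stood at 36.2, 37.9 and 33.3 FPKM in ES10 and 72.9, 70.4 and 69.6 in P_ES10. The groups did not overlap, as was so for 32.8% of all genes tested. Genes named for the largest changes were picked with no overlap as a condition, so it is no further support for them. Cyr61 had a log2 fold change of 0.97 ± 0.04 (SE, adjusted p = 1.11e-06). Without pulses it went from 36.9 ± 1.02 FPKM in NC to 112 ± 1.57 in P (SD, n = 3), and the PE difference after pulses was smaller (difference -0.61 ± 0.06, adjusted p = 4.39e-04).

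Ctgf encodes the related connective tissue growth factor (ENSRNOG00000015036, chromosome 1, 21851660 to 21854773). It measured 39.4, 45.96 and 41.1 FPKM in ES10 and 64.8, 64.6 and 66.3 in P_ES10, a log2 change of 0.62 ± 0.05 (adjusted p = 4.69e-05), with no overlap between the groups. Its PE difference was again smaller than the 1.15 without pulses (difference -0.52 ± 0.07, adjusted p = 0.00166). Amotl2, which encodes an angiomotin that binds YAP (ENSRNOG00000008487, chromosome 8, 111209908 to 111226226), measured 17.2, 19.4 and 18.02 FPKM in ES10 and 28.7, 26.1 and 28.3 in P_ES10. Its log2 change was 0.58 ± 0.05 (adjusted p = 1.05e-04) beside 0.66 without pulses, and the 95% interval of the difference ran from -0.24 to 0.07. Ankrd1, which encodes a cardiac ankyrin repeat protein and is also a YAP target, had another pattern. It measured 91.4, 95.8 and 86.9 FPKM in ES10 and 124, 119 and 132 in P_ES10 (0.45 ± 0.05, adjusted p = 6.77e-04), against 66.8 ± 3.29 in NC and 66.5 ± 2.67 in P. Here the PE difference after pulses exceeded that without by 0.46 ± 0.07 (adjusted p = 0.00544).

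Since Cyr61, Ctgf and Amotl2 were higher together, the 250 bases before the start of each gene were read from RefSeq (build GRCr8) and searched on both strands for the letters GGAATG, the core that TEAD proteins bind. Cyr61 is listed there as Ccn1 and Ctgf as Ccn2. Capitals mark each match, and a match on the opposite strand reads CATTCC.
Cyr61, chr2:237225690-237225939, minus strand: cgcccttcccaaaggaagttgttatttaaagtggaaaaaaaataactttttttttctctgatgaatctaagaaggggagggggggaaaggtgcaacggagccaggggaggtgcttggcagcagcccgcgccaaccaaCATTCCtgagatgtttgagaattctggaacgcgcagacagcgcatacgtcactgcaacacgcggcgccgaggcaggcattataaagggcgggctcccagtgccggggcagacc
Ctgf, chr1:22624615-22624864, minus strand: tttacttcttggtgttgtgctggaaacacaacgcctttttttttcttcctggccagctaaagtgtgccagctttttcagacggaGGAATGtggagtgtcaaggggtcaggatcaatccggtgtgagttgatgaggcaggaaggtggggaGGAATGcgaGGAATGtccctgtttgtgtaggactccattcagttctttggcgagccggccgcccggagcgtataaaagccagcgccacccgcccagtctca
Amotl2, chr8:112182376-112182625, plus strand: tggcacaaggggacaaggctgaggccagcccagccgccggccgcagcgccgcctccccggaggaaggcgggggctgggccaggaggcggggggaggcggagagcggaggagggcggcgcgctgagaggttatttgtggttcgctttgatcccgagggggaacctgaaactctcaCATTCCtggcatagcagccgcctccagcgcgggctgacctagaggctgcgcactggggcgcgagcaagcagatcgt
The stretch of Ctgf held 3 matches, whose outermost bases lie 166, 101 and 92 bases before the start. Those of Cyr61 and Amotl2 held 1 each, at 113 and 76 bases. Of 27457 promoters of the same length, 11.8% held at least 1 match. Of the 15 promoters of the list found in the table, 8 did (Acta2, Ajuba, Amotl2, Ccn1, Ccn2, Flna, Tpm1 and Vcl). The list was drawn up as targets of YAP, TEAD and SRF, so its larger share says nothing on PE. After pulses 5 of the 20 tested list members were called, among them Ankrd1, which is not 1 of the 8 with a match. Several of the 8 were therefore not called by limma, such as Acta2 (0.08 ± 0.04, adjusted p = 0.185). A match describes the letters and does not show that a protein binds there.

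Matrix genes split. Of 27 tested matrix proteins and matrix enzymes other than collagens, 5 were higher and 6 lower after pulses (9 and 4 without pulses), with a median of -0.01. The higher count was 3 without P_ES10 replicate 2 and 3 with all 18 libraries, where 1 was lower. Postn encodes the matricellular protein periostin (ENSRNOG00000012660, chromosome 2, 143656793 to 143688087) and measured 14.6, 14.8 and 14.8 FPKM in ES10 and 30.7, 33.002 and 31.6 in P_ES10, so that the groups lay far apart. The log2 change was 1.06 ± 0.04 (adjusted p = 1.31e-07), larger than the 0.76 without pulses by 0.30 ± 0.05 (adjusted p = 0.00764, and 0.597 with all 18 libraries). Timp1, an inhibitor of matrix metalloproteinases, measured 100.5, 114 and 106 FPKM in ES10 and 169.8, 161 and 152 in P_ES10 (0.59 ± 0.05, adjusted p = 2.03e-04).

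Tnc, which encodes tenascin C, rose from 4.97 ± 0.290 to 7.10 ± 0.188 FPKM (0.44 ± 0.05, adjusted p = 5.62e-04), and Srpx2, which encodes a secreted sushi-repeat protein, from 15.5 ± 0.996 to 24.5 ± 0.464 (0.63 ± 0.04, adjusted p = 3.66e-05). For Timp1, Tnc and Srpx2 the difference from the PE change without pulses was not called, with adjusted p-values of 0.141, 0.0939 and 0.647. Fn1, the fibronectin gene, was among the lower calls (-0.14 ± 0.03, adjusted p = 0.00794), but not with FPKM scaled to total reads (-0.09), with quantile normalization or with no filter on low values. The abundant collagen gene Col1a1 measured 1503, 1620.3 and 1539 FPKM in ES10 and 1453, 1530.4 and 1499.5 in P_ES10, which overlap (-0.06 ± 0.03, adjusted p = 0.334), while without pulses it was higher with PE by 0.18 ± 0.03. Its difference of -0.24 ± 0.05 was called (adjusted p = 0.0163) but not with no filter on low values. Col1a2 was called higher (1.02 ± 0.25, adjusted p = 0.0246), but its ES10 libraries measured 345, 388 and 616 FPKM, and the call was lost without ES10 replicate 1 or 2 or P_ES10 replicate 2 or 3 and with all 18 libraries.

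Among NF-kB and cytokine genes, 8 of 18 tested were higher and 0 lower after pulses, with a median of 0.18, and without pulses 11 were higher and 5 lower. The higher count was 4 without ES10 replicate 2 or 3 or P_ES10 replicate 2 and 1 with all 18 libraries. Icam1, the leukocyte adhesion molecule gene (ENSRNOG00000020679, chromosome 8, 22035256 to 22047059), measured 89.2, 91.2 and 91.5 FPKM in ES10 and 135, 143 and 136 in P_ES10 (0.60 ± 0.03, adjusted p = 2.64e-06). The monocyte chemokine gene Ccl2 rose from 38.3 ± 0.691 to 53.7 ± 2.61 FPKM (0.48 ± 0.05, adjusted p = 5.62e-04). Both were also higher with PE without pulses, by 0.41 and 0.34. For Icam1 the difference from the change without pulses was called (0.19, adjusted p = 0.0276). That call was lost in 7 of 21 alternatives, among them the fit with all 18 libraries.

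Cxcl1 and Tnfaip3 went the other way without pulses. Cxcl1, a neutrophil chemokine gene, measured 129, 121 and 119 FPKM in ES10 and 173, 168 and 158 in P_ES10 (0.43 ± 0.04, adjusted p = 2.88e-04), but without pulses was lower with PE, at 61.1 ± 1.66 in NC and 43.4 ± 1.26 in P (-0.49 ± 0.04, adjusted p = 2.41e-05). Tnfaip3, a feedback inhibitor of NF-kB, gave 0.44 ± 0.09 after pulses and -0.29 ± 0.09 without. The differences of 0.91 ± 0.06 and 0.73 ± 0.12 were both called (adjusted p = 1.02e-04 and 0.00703), and with all 18 libraries their adjusted p-values were 0.867 and 0.360. The death receptor gene Fas was higher by 0.52 ± 0.05 after pulses and 0.51 ± 0.05 without, and B2m, which encodes the invariant chain of class I antigen presentation, by 0.19 ± 0.03 and 0.18 ± 0.03.

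**Figure D2:**
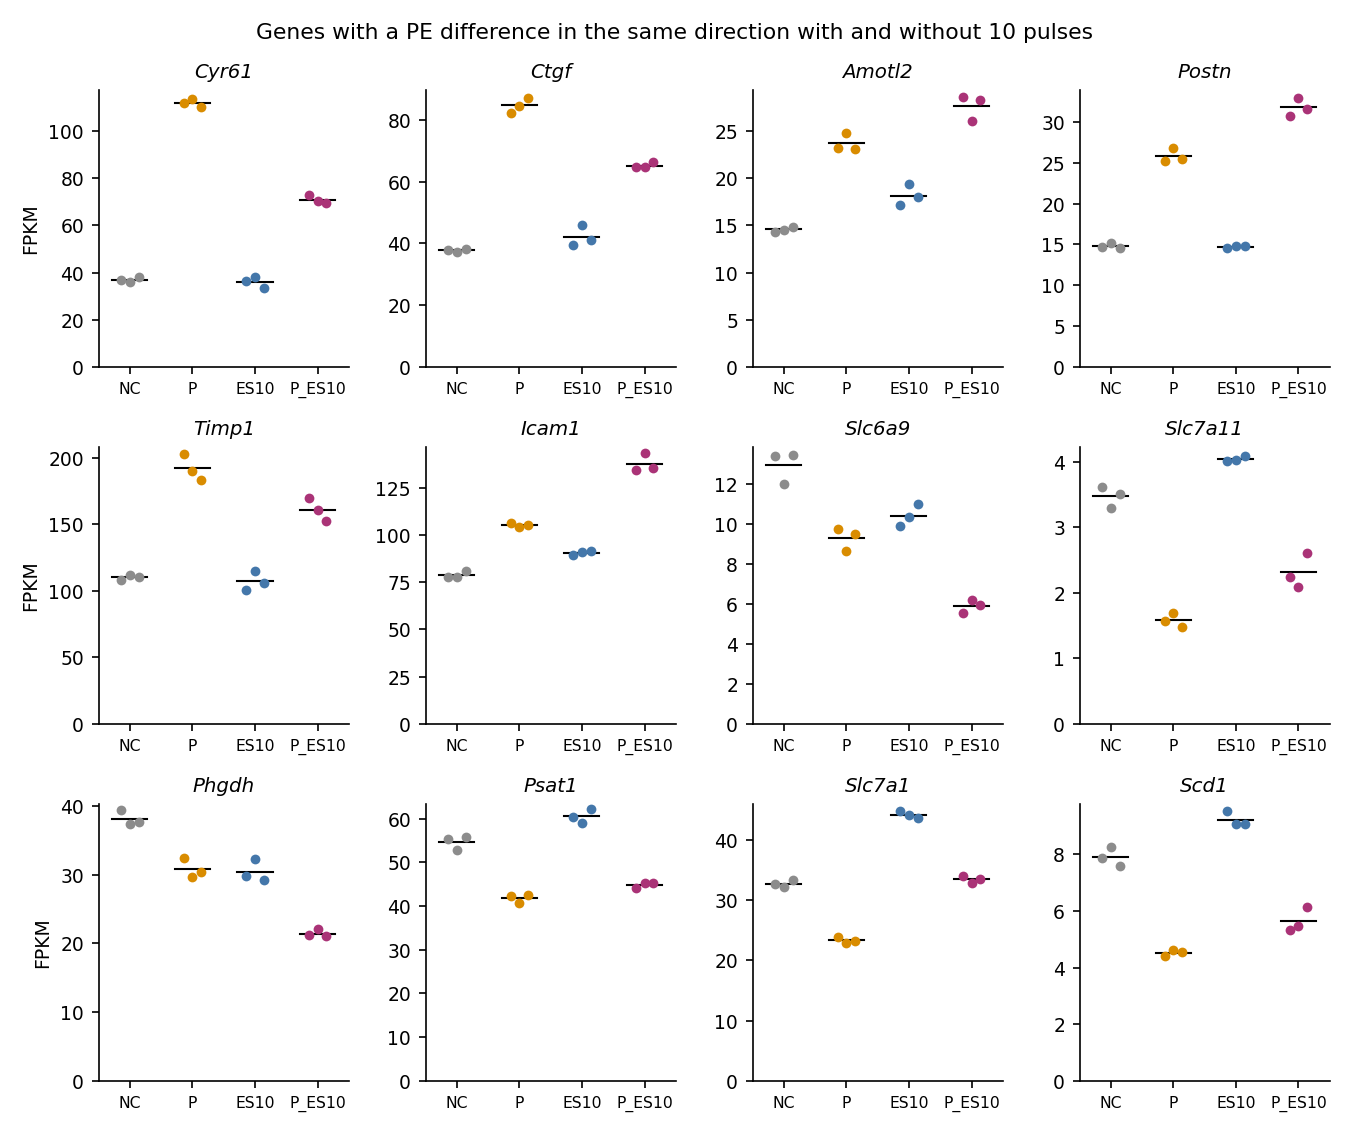
FPKM of 12 genes in each library (points) of NC, P, ES10 and P_ES10, with the mean of each group as a line. In each panel P_ES10 lies on the same side of ES10 as P does of NC, with no overlap between P_ES10 and ES10. The gap between the pulsed groups for Cyr61 (0.97 on the log2 scale) is narrower than that without pulses (1.57).

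Targets of ATF4, many of them genes of amino acid supply, gave more lower than higher calls in both settings. Of 23 tested ATF4 targets, 11 were lower and 1 higher after pulses, with a median of -0.12, and without pulses 20 were lower and 0 higher, with a median of -0.37. Between 9 and 11 were lower when 1 library was left out, and 8 with all 18. Slc6a9, the gene of the glycine transporter GLYT1 (ENSRNOG00000019484, chromosome 5, 136669674 to 136703697), is not on that list. It measured 9.90, 10.3 and 11.004 FPKM in ES10 and 5.56, 6.21 and 5.93 in P_ES10 (-0.73 ± 0.06, adjusted p = 1.03e-04), beside -0.44 ± 0.06 without pulses. Slc7a11, which encodes the cystine transporter xCT, measured 4.02, 4.03 and 4.10 FPKM in ES10 and 2.25, 2.10 and 2.61 in P_ES10, a change of -0.61 ± 0.07 (adjusted p = 5.68e-04) beside -0.79 ± 0.07 without pulses.

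Phgdh and Psat1 encode enzymes of serine synthesis. Phgdh measured 29.8, 32.3 and 29.2 FPKM in ES10 and 21.2, 22.1 and 21.1 in P_ES10 (-0.48 ± 0.05, adjusted p = 2.03e-04). Psat1 measured 60.5, 59.1 and 62.3 FPKM in ES10 and 44.1, 45.2 and 45.2 in P_ES10 (-0.43 ± 0.03, adjusted p = 4.35e-05). Slc7a1, the gene of the cationic amino acid transporter CAT-1, measured 44.9, 44.1 and 43.6 FPKM in ES10 and 34.1, 32.8 and 33.5 in P_ES10 (-0.39 ± 0.03, adjusted p = 4.03e-05). None of these genes overlapped between the groups. The difference from the change without pulses was not called for Slc6a9, Slc7a11, Phgdh, Psat1 or Slc7a1, with adjusted p-values of 0.0821 to 0.566. Atf4 and Chac1, named after their values were seen, had smaller changes after pulses. Atf4 gave -0.08 ± 0.04, adjusted p = 0.197, beside -0.40 ± 0.04 without pulses. Chac1, which encodes a glutathione-degrading enzyme, gave -0.06 ± 0.06, adjusted p = 0.571, beside -0.69 ± 0.06. For both the difference was called (adjusted p = 0.00465 and 0.00134).

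The promoter of Slc7a1, chosen because it held a match, is shown for the letters TGATGNAA, in which N is any base and which match elements that ATF4 binds with a C/EBP partner. It held 1 match, in capitals, whose outermost base lies 30 bases before the start.
Slc7a1, chr12:11664238-11664487, plus strand, build GRCr8, RefSeq: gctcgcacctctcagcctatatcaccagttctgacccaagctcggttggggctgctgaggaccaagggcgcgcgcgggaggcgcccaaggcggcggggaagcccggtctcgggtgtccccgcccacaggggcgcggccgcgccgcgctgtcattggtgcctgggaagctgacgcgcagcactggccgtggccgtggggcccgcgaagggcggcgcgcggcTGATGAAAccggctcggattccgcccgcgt
Those letters, on either strand, occurred in 3.30% of the 27457 promoters and in 5 of the 22 list promoters found in the table (Chac1, Fgf21, Nupr1, Slc7a1 and Trib3). The list was drawn up as ATF4 targets, so its larger share says nothing on PE. The promoters of Phgdh, Psat1 and Slc7a11, which were lower after pulses, held no match, and that of Chac1, which was not called after pulses, held one.

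Genes of lipid synthesis did not move as 1 group. Scd1 and Scd2 encode stearoyl-CoA desaturases, which make monounsaturated fatty acids. Scd1 measured 9.52, 9.06 and 9.06 FPKM in ES10 and 5.31, 5.46 and 6.15 in P_ES10 (-0.62 ± 0.05, adjusted p = 1.05e-04), beside -0.69 without pulses, and the 95% interval of the difference ran from -0.10 to 0.23. Scd2 measured 48.2, 48.1 and 47.6 FPKM in ES10 and 32.2, 34.6 and 32.99 in P_ES10 (-0.52 ± 0.03, adjusted p = 2.46e-05), a larger drop than the -0.20 without pulses (difference -0.31 ± 0.05, adjusted p = 0.00465, and 0.157 with all 18 libraries). Of 10 tested fatty acid synthesis genes, 5 were lower and 0 higher after pulses (6 and 0 without). That lower count was 3 without ES10 replicate 1 or 2 or P_ES10 replicate 1, 2 or 3, and 2 with all 18 libraries.

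In the cholesterol pathway, 13 of 24 tested genes were lower and 1 higher with PE without pulses, and 5 lower and 3 higher after them, with medians of -0.20 and -0.06. The lower count after pulses was 2 without ES10 replicate 2 or P_ES10 replicate 2, and with all 18 libraries 1 was lower and 1 higher. Hmgcs1, which encodes the cytosolic HMG-CoA synthase (ENSRNOG00000016552, chromosome 2, 52431601 to 52445055), measured 55.02, 53.2 and 47.6 FPKM in ES10 and 70.05, 68.6 and 69.03 in P_ES10 (0.41 ± 0.05, adjusted p = 0.00120). Without pulses it was lower with PE, at 29.8 ± 1.56 FPKM in NC and 22.5 ± 0.816 in P (-0.39 ± 0.05, adjusted p = 4.21e-04). Idi1, the isopentenyl diphosphate isomerase gene, gave 0.28 ± 0.06 (adjusted p = 0.0120) after pulses and -0.78 ± 0.06 without. The differences of 0.80 ± 0.08 and 1.05 ± 0.08 were called (adjusted p = 3.56e-04 and 1.34e-04). Acat2 and Lss, which encode a thiolase and lanosterol synthase, were lower after pulses, with changes of -0.31 ± 0.06 and -0.25 ± 0.05.

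All 13 mitochondrially encoded mRNAs, which specify subunits of the respiratory chain and ATP synthase, were lower with PE after pulses, with log2 changes of -0.74 to -0.54 with a median of -0.61. Without pulses all 13 were lower, with changes of -1.71 to -1.31 with a median of -1.35, and for 12 of 13 the PE difference after pulses was called as smaller. Mt-nd5, a complex I subunit gene (ENSRNOG00000029971, mitochondrial genome, 11736 to 13565), measured 879.8, 799 and 832 FPKM in ES10 and 536, 501 and 540.4 in P_ES10 (-0.67 ± 0.06, adjusted p = 9.05e-05). It measured 1303 ± 102 FPKM in NC and 523 ± 10.3 in P, and the difference was 0.64 ± 0.08 (adjusted p = 0.00128). Mt-co1, a cytochrome c oxidase subunit gene, gave -0.60 ± 0.07 after pulses and -1.33 ± 0.07 without. Mt-nd4 was called (-0.74 ± 0.20, adjusted p = 0.0383), but not without ES10 replicate 1, 2 or 3 or P_ES10 replicate 2 or 3 or with all 18 libraries, which left 12 of 13.

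As a share of all reads, the 37 mitochondrial genes took 9.80, 9.25 and 9.26% in ES10 and 6.79, 6.05 and 6.55% in P_ES10. The groups did not overlap. A two-sided exact permutation test gave p = 0.1, which is the lowest value that groups of 3 allow. The share was 12.9 ± 1.21% in NC and 5.48 ± 0.104% in P (SD, n = 3). Quantile normalization, which ties the highest genes between libraries, called 8 of the 13 lower. Nuclear genes of the respiratory chain gave few calls. Among 32 tested genes of complex I and 36 of complexes II to V, limma called 0 after pulses, where 11.5% of all genes were called. The medians were 0.04 and 0.01. Members ranged from -0.18 to 2.21 and from -0.64 to 0.15, so some large changes were not called. At an unadjusted p under 0.05 these were 3 and 4 genes, where 3065 of all 11549 were. Voom on recovered reads called 0 in each list.

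**Figure D3:**
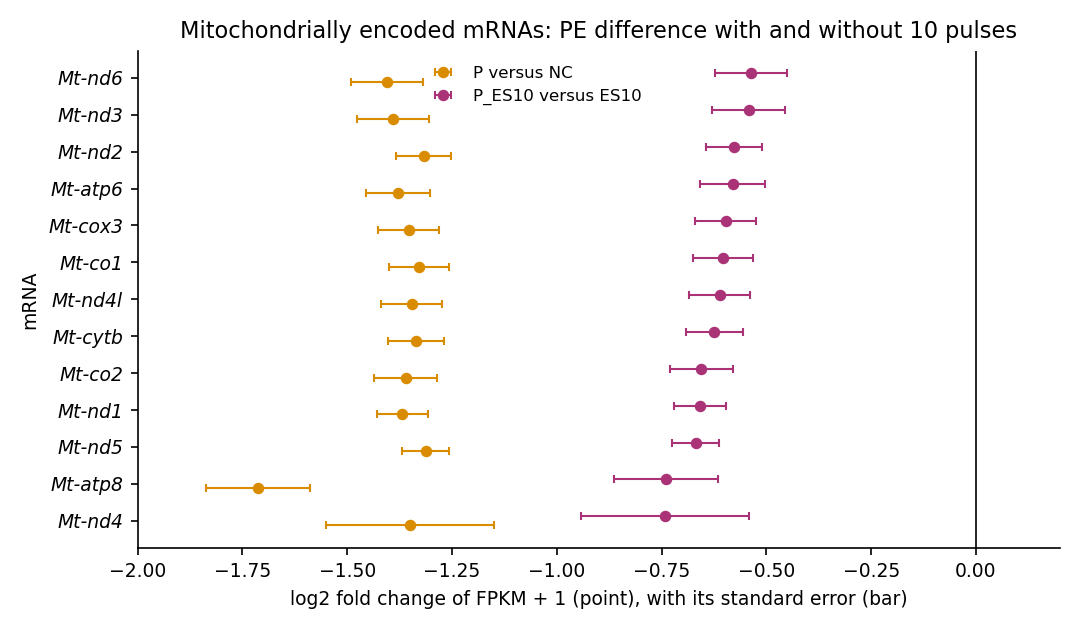
Log2 fold change of FPKM + 1 with PE for the 13 mitochondrially encoded mRNAs (points, with the standard error as a bar), after 10 pulses (P_ES10 versus ES10) and without pulses (P versus NC). All points lie below 0, between -0.74 and -0.54 after pulses and between -1.71 and -1.31 without.

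Immediate early genes differed between the settings. With PE alone 20 of 24 tested were lower and 0 higher, with a median of -0.36. After pulses 3 were higher and 1 lower, with a median of 0.08. For 16 of the 24 the difference was called, each time positive (5 with all 18 libraries). Among all genes tested, 15.1% were lower with PE without pulses, and 4.87% were higher and 6.68% lower after them. A positive difference was called for 2.87%. Fos, which encodes a subunit of AP-1 (ENSRNOG00000008015, chromosome 6, 109300433 to 109303299), measured 32.05, 35.2 and 27.5 FPKM in ES10 and 48.2, 42.8 and 46.5 in P_ES10, without overlap (0.53 ± 0.11, adjusted p = 0.0132). Without pulses it measured 19.3 ± 2.73 FPKM in NC and 8.38 ± 0.966 in P (-1.11 ± 0.11), and the difference was 1.64 ± 0.16 (adjusted p = 3.82e-04). Klf2, a transcription factor gene induced by flow, measured 16.3, 17.6 and 12.9 FPKM in ES10 and 26.6, 24.4 and 21.98 in P_ES10 (0.62 ± 0.13, adjusted p = 0.0118), and was lower with PE without pulses (-0.49 ± 0.13, adjusted p = 0.0140). Its difference was 1.11 ± 0.18 (adjusted p = 0.00561). The calls for Jun, higher by 0.13 ± 0.04, and Jund, lower at -0.25 ± 0.07, were each lost in fits without 1 library, such as that without ES10 replicate 1.

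Fosb, Klf4 and Egr1 had no called PE difference after pulses in the fit of 12 libraries, though Fosb was called in 7 of 16 alternatives and Klf4 and Egr1 in 0. Fosb, another AP-1 subunit gene, measured 34.7, 36.5 and 32.3 FPKM in ES10 and 43.2, 41.2 and 41.6 in P_ES10 (0.28 ± 0.08, adjusted p = 0.0599), beside 16.002 ± 1.28 in NC and 6.38 ± 0.892 in P. Klf4, a Krüppel-like factor gene, measured 23.01, 24.6 and 20.6 FPKM in ES10 and 24.9, 23.6 and 23.8 in P_ES10 (0.08 ± 0.08, adjusted p = 0.580), beside 13.9 ± 0.613 in NC and 5.59 ± 0.845 in P. Egr1, a zinc finger transcription factor gene, measured 22.5, 24.7 and 19.3 FPKM in ES10 and 28.01, 22.1 and 24.1 in P_ES10 (0.15 ± 0.12, adjusted p = 0.466). The libraries of ES10 and P_ES10 overlapped for Klf4 and Egr1 and not for Fosb. For Fosb, Klf4 and Egr1 the difference from the change without pulses was 1.48 ± 0.12, 1.26 ± 0.12 and 1.18 ± 0.17 (adjusted p = 1.61e-04, 3.56e-04 and 0.00292). The call for Klf4 was lost with all 18 libraries (adjusted p = 0.0659). Id1, which encodes an inhibitor of DNA binding, and Hbegf, which encodes an EGF receptor ligand, were higher after pulses (0.42 ± 0.07 and 0.34 ± 0.05) and lower without (-0.51 ± 0.07 and -0.38 ± 0.05).

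Hmox1 encodes the heme-degrading enzyme heme oxygenase 1 (ENSRNOG00000014117, chromosome 19, 14508616 to 14515456). It measured 1041, 1185 and 1229 FPKM in ES10 and 1025, 1009 and 1069.8 in P_ES10, and the groups overlapped (-0.15 ± 0.05, adjusted p = 0.103). Without pulses it was lower with PE, at 329 ± 10.3 FPKM in NC and 149 ± 4.85 in P (-1.14 ± 0.05), and the difference of 0.99 ± 0.08 was called (adjusted p = 1.40e-04). Adm encodes the vasodilator adrenomedullin and gave -0.17 ± 0.06 (adjusted p = 0.1005) after pulses and -1.104 without, with a difference of 0.93 ± 0.09 (adjusted p = 3.56e-04). Of 22 tested NRF2 targets, 8 were lower and 1 higher after pulses (11 and 1 without). The lower count was 3 without P_ES10 replicate 1 or 2, and 2 with all 18 libraries. Among them Nqo1, a quinone reductase gene, went from 164 ± 3.89 to 137 ± 2.57 FPKM (-0.26 ± 0.03, adjusted p = 8.95e-04), and Srxn1, the sulfiredoxin gene, changed by -0.25 ± 0.05 (adjusted p = 0.00809). For Nqo1 and Srxn1 the difference from the change without pulses was called, at -0.20 and 0.33 (adjusted p = 0.0271 and 0.0160). Both of these calls were lost with all 18 libraries, and that of Nqo1 in 8 of 21 alternatives.

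Heat shock chaperone genes were higher with PE after pulses for 5 of 15 tested members and lower for 0, against 1 higher and 4 lower without pulses. The higher count was 3 without ES10 replicate 1 or 2 or P_ES10 replicate 1, 2 or 3, and 1 with all 18 libraries. Hsph1, which encodes HSP105, measured 168, 175 and 186 FPKM in ES10 and 210.0, 199 and 215 in P_ES10 (0.24 ± 0.04, adjusted p = 0.00661). Hspa1b, an inducible HSP70 gene whose reads may be split with a near-identical copy, measured 5.36, 6.54 and 7.65 FPKM in ES10 and 9.76, 8.71 and 10.6 in P_ES10 (0.51 ± 0.11, adjusted p = 0.0120). Without pulses it was lower with PE (-0.61 ± 0.11). The difference of 1.12 ± 0.15 (adjusted p = 0.00218) was not called with all 18 libraries (adjusted p = 0.0575).

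Trim72 encodes MG53, a muscle protein that takes part in resealing the plasma membrane (ENSRNOG00000022099, chromosome 1, 199449973 to 199457895). It measured 3.14, 3.80 and 4.33 FPKM in ES10 and 10.03, 9.46 and 8.07 in P_ES10, without overlap, and the log2 change was 1.10 ± 0.11 (adjusted p = 2.88e-04). Without pulses it measured 1.11 ± 0.166 FPKM in NC and 1.18 ± 0.147 in P, a change of 0.05 ± 0.11 with a 95% interval of -0.19 to 0.29. The difference was 1.05 ± 0.15 (adjusted p = 0.00316, and 0.296 with all 18 libraries). Its level is low, and the scale of log2(FPKM + 1) understates such changes. Of 23 tested membrane repair genes, 3 were higher and 1 lower after pulses, with 1 higher without ES10 replicate 3 or P_ES10 replicate 1 or 2. Among all genes tested, 4.87% were higher and 6.68% lower. The lower count, and the higher count of 1 in those fits, were near these shares. The annexin genes Anxa1 and Anxa6, the other higher calls, changed by 0.11 ± 0.03 and 0.11 ± 0.03, and both calls were lost without ES10 replicate 3 or P_ES10 replicate 1 or 2 and with all 18 libraries.

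Further genes had a PE difference after pulses that departed from that without. Hes1, a transcriptional repressor gene downstream of Notch, measured 23.1, 26.1 and 21.96 FPKM in ES10 and 36.1, 32.03 and 34.8 in P_ES10 (0.52 ± 0.07, adjusted p = 0.00144), against -0.06 ± 0.07 without pulses. Fhl1, a LIM protein gene of striated muscle, measured 306, 308 and 299 FPKM in ES10 and 363, 352 and 363 in P_ES10 (0.24 ± 0.03, adjusted p = 8.95e-04), against -0.08 ± 0.03. Pdgfrb, a receptor tyrosine kinase gene, fell from 25.2 ± 0.144 to 20.04 ± 0.278 FPKM (-0.32 ± 0.03, adjusted p = 3.19e-04), against 0.06 ± 0.03. The phosphofructokinase genes Pfkl and Pfkp of glycolysis changed by -0.37 ± 0.05 and -0.28 ± 0.04, against -0.00 ± 0.05 and 0.02 ± 0.04. The differences for Hes1, Fhl1, Pdgfrb, Pfkl and Pfkp had adjusted p-values of 0.00701, 0.00186, 0.00110, 0.0123 and 0.0123. The PE difference of Hes1 after pulses was itself not called with all 18 libraries (adjusted p = 0.221), nor was that of Pfkp (0.0942). With all 18 libraries the difference for Fhl1 passed (0.00160), and those of the other genes were 0.566, 0.101, 0.0904 and 0.394. Of 16 tested glycolysis genes, 6 were lower and 1 higher after pulses, and 4 lower without, with medians of -0.11 and -0.06. With all 18 libraries 3 were lower after pulses.

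**Figure D4:**
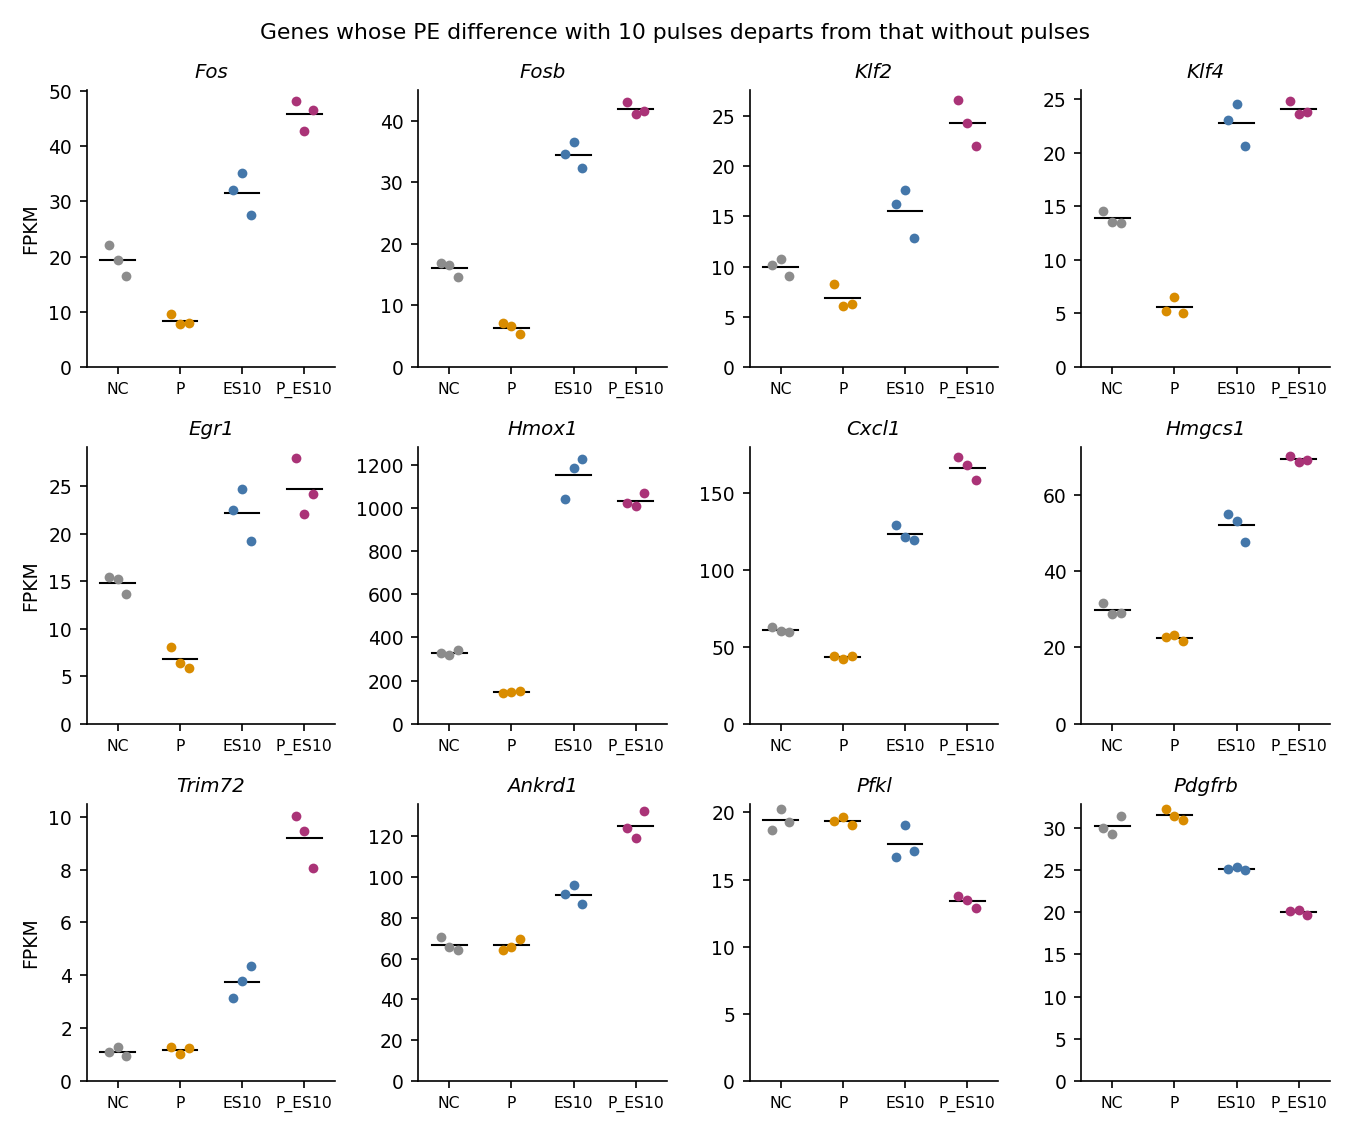
FPKM of 12 genes in each library (points) of NC, P, ES10 and P_ES10, with the mean of each group as a line. For Fos, Klf2, Cxcl1 and Hmgcs1 P lies below NC and P_ES10 above ES10. For Trim72 P and NC lie near 1.18 FPKM and P_ES10 at 9.19.

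Cell cycle genes were counted by phase. Among all genes tested, 16.0% were higher and 15.1% lower with PE without pulses, and 4.87% and 6.68% after them. A negative difference was called for 3.23%. Of 28 tested genes of G2 and mitosis, 18 were higher and 0 lower with PE without pulses. After pulses 2 were higher, near the share of all genes, and 0 lower (Kif23 and Mki67 higher). The medians were 0.22 without pulses and 0.02 after them. The higher count after pulses was 1 without ES10 replicate 1 or 3 or P_ES10 replicate 1, 2 or 3 and 0 with all 18 libraries. The difference was called for 5 of them, each negative, and with all 18 libraries for 0. Of 29 tested genes of G1/S and DNA replication, 9 were higher and 2 lower after pulses, and 9 and 2 without. The higher count after pulses was 5 without ES10 replicate 2 and 0 with all 18 libraries. Mcm4, which encodes a subunit of the replicative helicase, rose from 14.4 ± 0.554 to 17.7 ± 0.615 FPKM (0.28 ± 0.06, adjusted p = 0.0104). Ccnd2, which encodes cyclin D2, went the other way, at 28.2, 28.9 and 31.6 FPKM in ES10 and 21.1, 19.6 and 20.4 in P_ES10 (-0.52 ± 0.06, adjusted p = 9.27e-04), and was also lower without pulses (-0.61 ± 0.06). Cdkn1a, the gene of the cell cycle inhibitor p21, stood at 119 ± 2.19 FPKM in ES10 and 118 ± 1.57 in P_ES10 (-0.01 ± 0.03, adjusted p = 0.875).

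Ribosomal protein genes gave 1 higher and 1 lower of 63 tested after pulses, where 4.87% and 6.68% of all genes were called. Of 12 hypoxia targets 5 were lower, with 2 without P_ES10 replicate 1 and 0 with all 18 libraries. Among 21 genes of the BCL2 family 4 were lower and 2 higher, with 2 lower without ES10 replicate 1 or 2 or P_ES10 replicate 1 and 0 lower and 0 higher with all 18 libraries. Bmf, a death-promoting member, measured 4.04 ± 0.375 FPKM in ES10 and 2.20 ± 0.535 in P_ES10 (-0.67 ± 0.11, adjusted p = 0.00384). Ninj1, which encodes a protein of plasma membrane rupture, measured 41.4, 43.3 and 45.7 FPKM in ES10 and 31.02, 31.3 and 30.996 in P_ES10 (-0.47 ± 0.05, adjusted p = 3.25e-04), beside -0.34 ± 0.05 without pulses. Of 15 tested cardiac hypertrophy markers, 4 were higher and 2 lower after pulses, and 3 were higher and 3 lower without. The counts without pulses were near the shares of all genes, 16.0% higher and 15.1% lower. With 1 of the 6 libraries left out, 3 to 4 were higher and 2 to 3 lower. The higher calls include Ctgf, Ankrd1 and Fhl1, given above. Among the lower, the skeletal actin gene Acta1 fell from 10.2 ± 0.370 to 7.37 ± 0.0706 FPKM (-0.42 ± 0.06, adjusted p = 0.00242). Nppb, the brain natriuretic peptide gene, had 2.06 ± 0.322 FPKM in ES10 and 1.95 ± 0.155 in P_ES10 (-0.05 ± 0.12, adjusted p = 0.839).

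**Figure D5:**
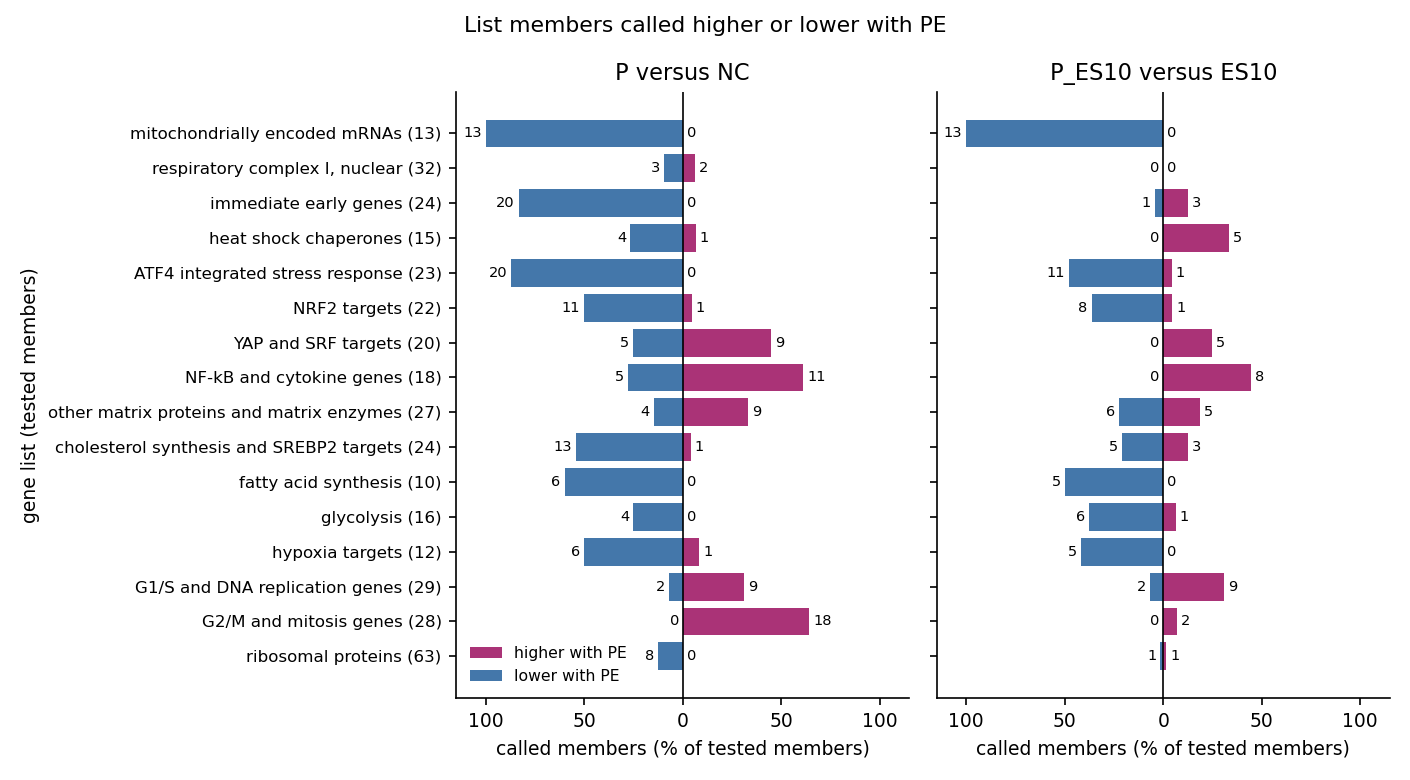
Share of tested members of 16 gene lists called higher or lower with PE, without pulses (P versus NC) and after 10 pulses (P_ES10 versus ES10), with the number of called genes at each bar. The 20 lower immediate early genes and 18 higher mitosis genes without pulses stand against 1 and 2 after them, and the 13 mitochondrial mRNAs are lower in both.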

How the data were processed

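RNA-seq gene levels were deposited by the authors as a table of FPKM for 32545 rat genes in 18 libraries, with the genome build Rnor 6.0 per the submitters' processing notes. No aligner or counter is named in the labels. Multiplied by gene length, 100% of values came out as whole reads within a tolerance of 0.01, which gave each library's reads on genes. The median gene is level between the deposited libraries, so the values carry a scaling beyond depth and length.

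Values were used as log2(FPKM + 1) for the 11549 genes with at least 1 FPKM in at least 3 of the 12 libraries of NC, P, ES10 and P_ES10. A linear model with 1 mean per group was fitted in limma 3.58.1 (R 4.3.3, with version 1.17.8 of data.table) with moderated errors and Benjamini-Hochberg adjustment over all genes tested. A gene was called at an adjusted p under 0.05. Because of the added 1, changes of low genes are understated. The 12 libraries were fitted together to share 1 estimate of the spread. The comparisons were P_ES10 minus ES10, P minus NC, and the difference of both. Python 3.11.15 (pandas 2.3.3, numpy 2.4.6, matplotlib 3.10.9) served for tables and plots, and the fit was tested on simulated data.

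Named genes came from a rule. It took the 15 largest called changes in each direction, among genes whose 3 libraries of P_ES10 did not overlap with those of ES10. It also took the 10 largest differences of each sign and the 10 called both with and without pulses in each direction. Up to 4 genes per list and 28 fixed genes complete the named genes. The text names some of them, and some are not reported here. The comparison, the lists and the rule were chosen with earlier results of these data known. Alternatives changed the libraries fitted, the pseudocount, the filter, the scaling, a replicate block and a voom fit of the recovered reads, and left out each library. Symbols were matched to Ensembl identifiers. Hspa1b has a near-identical copy, 2 genes carry the symbol Mt1, and Mt-atp8 with Mt-atp6, and Mt-nd4l with Mt-nd4, overlap, so their values are uncertain where reads could be split. Strand use in counting is not given, which touches Mt-nd5 and Mt-nd6.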

Additional observations from a re-analysis of the deposited data

Results flagged for a closer look

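For the genes below the PE difference after 10 pulses was tested against that without pulses, and the difference of both (log2 scale, after pulses minus without) was called by limma. Positive differences were found for the immediate early and growth genes Fos (1.64), Fosb (1.48), Klf4 (1.26), Egr1 (1.18), Klf2 (1.11) and Myc (0.59). They were found for the stress genes Mt1 (1.35), a metallothionein symbol carried by 2 genes, Hspa1b (1.12), Hmox1 (0.99), Adm (0.93), Txnrd1 (0.30) and Cdkn1a (0.21). They were also found for the cholesterol synthesis gene Idi1 (1.05), for the muscle genes Acta1 (0.49) and Ankrd1 (0.46), and for the mitochondrial mRNAs Mt-nd3 (0.85) and Mt-co1 (0.72).

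Negative differences were found for Hoxb5 (-0.80), Fam132a (-0.78), Fhod1 (-0.74), Cabp4 (-0.74), Apbb3 (-0.73) and Col1a1 (-0.24). Fhod1, a formin gene, changed with PE by -0.04 ± 0.06 after pulses and 0.70 ± 0.06 without, and the homeobox gene Hoxb5 by -0.12 ± 0.09 and 0.67 ± 0.09. When 1 of the 12 libraries was left out, the difference was no longer called for Cabp4 in 10 fits (adjusted p up to 0.0892, without ES10 replicate 2) and for Cdkn1a in 5 (up to 0.0621, without P_ES10 replicate 3). With all 18 libraries the calls of Cabp4, Cdkn1a, Acta1, Hoxb5, Hspa1b, Klf4 and Myc were lost. With no filter on low values those of Cabp4, Col1a1 and Mt-co1 were lost. That of Mt-co1 was also lost with quantile normalization, which left no difference, and that of Cdkn1a with scaling to total reads.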

How the results depend on the processing

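With all 18 libraries in the fit, 215 genes were called for P_ES10 versus ES10, 1136 for P versus NC and 108 for the difference, and 132 were called in the same direction with and without pulses. Leaving out 1 library gave 713 to 923 calls for P_ES10 versus ES10, 2812 to 3093 for P versus NC, 448 to 642 for the difference and 474 to 764 shared calls. The lowest were without P_ES10 replicate 2, NC replicate 1, P_ES10 replicate 1 and P_ES10 replicate 2. Without P_ES10 replicate 3 the difference had 465 calls, and without ES10 replicate 2 there were 526 shared calls. Where a library was left out, the remaining pair was assumed to vary like the other groups. Scaling to total reads gave 3395 higher and 845 lower for P versus NC, with the median gene at 0.10, and 253 positive and 757 negative differences. The drop in the mitochondrial share of reads, -2.97 percentage points, ranged from -3.1 to -2.8 with 1 library left out. With the replicate number as a block, 1142, 3404 and 596 genes were called for the 3 comparisons and 729 were shared. The labels do not say whether the numbers pair the libraries. Deviations of same-numbered libraries correlated from -0.11 to 0.12 and those of differently numbered ones from -0.11 to 0.11. With 3 libraries per group such values cannot settle it. Of 157 called named genes 46 kept their call in every alternative, and 0 of 240 named genes were counted as reversed in any. That count does not cover small uncalled changes, since that of 7SK ran from -0.16 to 0.15. Other than these settings, the cause of a lost call was not tested.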
